A study of Mus musculus with 12 samples.

Results

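The 8 genes described here encode transcription factors of the trophoblast, the outer lineage of the embryo that builds the placenta: Cdx2, Elf5, Hand1, Ascl2, Gata2, Gata3, Tfap2a and Tfap2c. They were chosen by name, and all probe sets of the array that carry 1 of these names as their single gene symbol were taken, which gave 18 of the 45101 probe sets and 8 of the 18193 named genes. L-proline-treated cells (PiCs) were TBV2 mouse embryonic stem cells of strain 129/SvP that had grown for 5 days with 500 µM L-proline, and control cells (ESCs) were the same line grown for 5 days without it. Both groups were kept without feeder cells on gelatin at low seeding density, in medium that held leukemia inhibitory factor (LIF) and no added non-essential amino acids, and TBV2 is a single wild-type line. Each group had 6 Affymetrix arrays, which the titles number as biological replicates 1 and 2 with 3 arrays each. The 3 arrays of a replicate were averaged, so each group has 2 values per probe set, and the labels do not say how the replicates were kept apart.

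Trophectoderm, the first trophoblast tissue, forms when Hippo signalling is low in outer cells, so that Yap1 and Tead4 switch on Cdx2. Cdx2, Gata3 and Tfap2c can each push embryonic stem cells toward trophoblast when forced on, and Elf5, Cdx2 and Eomes keep trophoblast stem cells dividing. Ascl2, Hand1 and Gata2 act later, in the spongiotrophoblast and the giant cells of the placenta. Embryonic stem cells normally keep this programme down: Pou5f1 (Oct4) opposes Cdx2, and the Elf5 promoter is held methylated. Several of the 8 genes also serve other cells, such as Cdx2 and Hand1 in mesoderm, Tfap2a in neural crest, Gata2 in blood, and Tfap2c in germ cells.

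The start regions of Cdx2, Elf5 and Gata2 are shown for the octamer in the Cdx2 window and for the contrast in CpG between the Elf5 and Gata2 windows. RefSeq windows of 300 bases, from 250 bases before to 50 after an annotated start in build GRCm38.p6, were found for 6 of the 8 genes, all but Hand1 and Tfap2c. In the Cdx2 window, chr5:147307200-147307499 on the minus strand, the octamer ATGCAAAT that POU factors such as Oct4 can bind is in capitals.
Cdx2: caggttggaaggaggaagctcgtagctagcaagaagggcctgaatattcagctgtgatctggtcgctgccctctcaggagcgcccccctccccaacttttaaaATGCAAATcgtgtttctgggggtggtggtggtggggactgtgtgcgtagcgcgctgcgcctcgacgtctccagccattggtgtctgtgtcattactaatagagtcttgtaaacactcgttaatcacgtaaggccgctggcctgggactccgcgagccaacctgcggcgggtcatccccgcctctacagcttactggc
In the upstream Elf5 window, chr2:103411848-103412147 on the plus strand, and in the upstream Gata2 window, chr6:88193641-88193940 on the plus strand, the capitals mark CpG, the dinucleotide at which mammalian DNA is methylated.
Elf5: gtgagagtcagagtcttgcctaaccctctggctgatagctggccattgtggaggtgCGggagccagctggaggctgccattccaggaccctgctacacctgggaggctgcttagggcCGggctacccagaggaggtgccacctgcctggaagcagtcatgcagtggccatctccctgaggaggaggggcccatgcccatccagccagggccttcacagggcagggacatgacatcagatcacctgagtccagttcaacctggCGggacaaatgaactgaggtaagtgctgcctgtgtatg
Gata2: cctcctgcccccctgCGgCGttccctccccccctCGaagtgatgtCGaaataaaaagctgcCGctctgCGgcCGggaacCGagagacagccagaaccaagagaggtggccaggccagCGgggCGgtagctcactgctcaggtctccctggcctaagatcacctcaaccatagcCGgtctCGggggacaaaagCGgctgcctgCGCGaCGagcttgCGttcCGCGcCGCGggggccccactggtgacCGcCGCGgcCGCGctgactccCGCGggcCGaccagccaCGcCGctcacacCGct
The Elf5 window held 3 CpG and the Gata2 window 32, and 23.3% and 90.5% of the 32841 windows in the table held fewer. Ascl2 had 23 CpG in its window and Cdx2 had 18, and the other annotated start of Elf5 had 10. Methylation was not measured in these cells. A set of 6 motifs was searched on both strands. Overlapping matches were allowed, and none occurred in the windows of these genes. The motifs were AGATAA for GATA factors, GGAATG for TEAD factors and GCCNNNGGC for AP-2 factors such as Tfap2a and Tfap2c. The others were TTTATG for CDX factors, CAGCTG for E-box binding factors and ATGCAAAT. The Cdx2 window held the octamer 1 time, with its first base 147 bases before the start, and none of the other 8 windows held it, against 1.74% of all windows. The Gata3 window held GCCNNNGGC 3 times, and the Cdx2 window and the other Gata2 window held it 1 time each. Of all windows, 16.6% held at least 1 match, a share that does not say how many held 3. A match in these letters describes the window and not a bound site.

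None of the 8 genes passed the test for a difference between PiCs and ESCs, in a background in which 4.36% of all genes passed. The replicate means were compared by limma's moderated test, in which each of 18193 genes entered by its brightest probe set, and a p adjusted by Benjamini-Hochberg over all of them had to be under 0.05. By an unadjusted p under 0.05, 3 of the 8 passed (Tfap2c, Ascl2 and Gata3), and 22.1% of all genes did. The median log2 fold change of the 8 genes was -0.23, beside -0.033 over all genes, with 4 above 0 and 4 below. Tfap2c, Ascl2, Gata2 and Tfap2a had lower means in PiCs, Cdx2 and Gata3 had higher means in PiCs, and Elf5 and Hand1 lay within 0.1 of each other in the 2 groups. With 2 values against 2, the smallest two-sided p of an exact permutation test is 0.33, and the p-values given come from limma's model of the spread.

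Most of the 18 probe sets were dim. No detection calls were used, so a limit was set from 63 probe sets of 38 genes of adult tissues such as liver, muscle, retina and lung, which embryonic stem cells are not known to use. Their signals ran from 2.52 to 8.50 with a median of 4.54, and their 90th percentile, 6.63, was taken as the limit. A probe set was called near background where the higher of its PiCs and ESCs means lay at or under it. By this limit 13 of the 18 probe sets were near background, among them all probe sets of Cdx2, Elf5, Hand1, Gata3 and Tfap2a. The limit lay above the median of every array (5.99 to 6.03), so most probe sets on each array also read under it. The other 5 were the 3 of Tfap2c, 1 of Gata2 and 1 of Ascl2. Counted by brightest probe set, 5 of the 8 genes lay near background, and so did 7835 of all 18193 genes. A limit of 5.36, the 40th percentile of all probe sets, left 5 of the 18 probe sets near background. By its definition, 40% of all probe sets have a mean signal under it. With 5.17, the 90th percentile of 44 probe sets of olfactory receptor genes, 4 were left. Both probe sets of Elf5, the single probe set of Gata3 and 1 of Hand1 were under all of these limits. Probe sets differ in how brightly they report the same amount of RNA, so the limit describes signals and does not rank genes by amount.

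**Figure D1:**
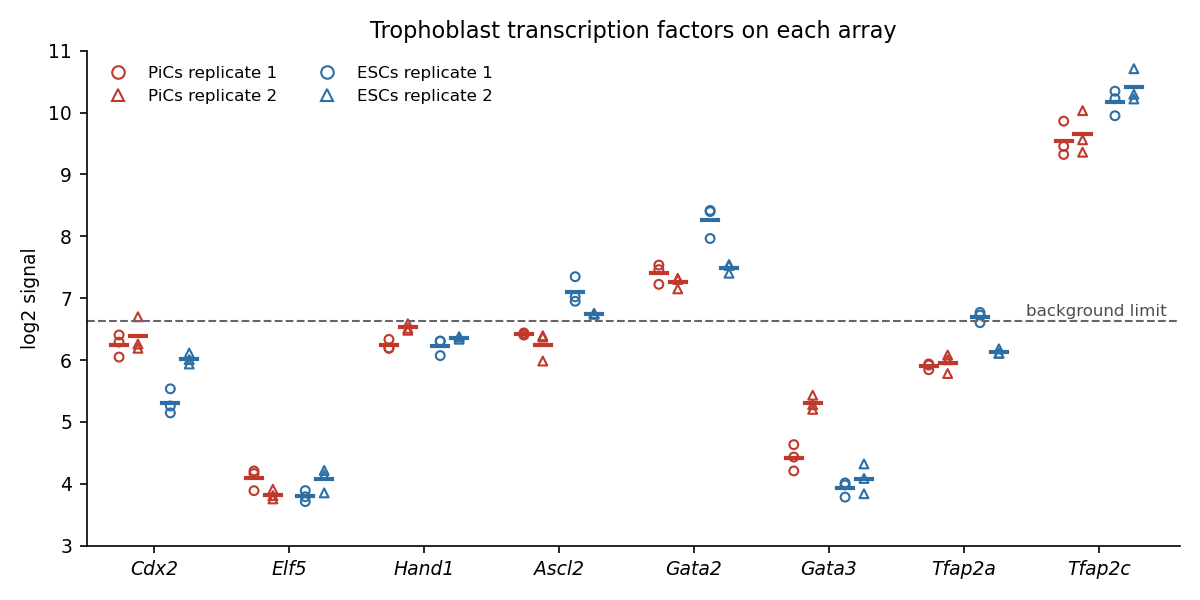
Log2 signal of the brightest probe set of each gene on the 12 arrays, PiCs in red left of ESCs in blue, circles for replicate 1, triangles for replicate 2 and bars for replicate means, with the background limit of 6.63 dashed. Tfap2c and Gata2 lie above the limit on every array, and Elf5 lies at 3.96 and 3.93 on average in the 2 groups.

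Cdx2, which specifies trophectoderm, was measured by 2 probe sets. The brighter, 1422075_at, read 6.25 and 6.38 in PiCs replicates 1 and 2, against 5.31 and 6.02 in ESCs replicates 1 and 2. Both PiCs values were above both ESCs values, and ESCs replicate 2 was the nearer of the controls, with arrays of the groups overlapping. Its log2 fold change was 0.65 ± 0.26 (moderated SE, n = 2 per group), with a limma adjusted p of 0.249. Without ESCs replicate 1 it was 0.30, and without ESCs replicate 2 it was 1.002. The other probe set, 1422074_at, read 5.35 and 5.66 in PiCs and 5.10 and 5.24 in ESCs. Its 6 PiCs arrays, 5.29 to 6.02, lay above its 6 ESCs arrays, 5.003 to 5.28, and it was the 1 member probe set that did so. The higher Cdx2 signal in PiCs was thus measured by both probe sets, at levels that genes of unrelated tissues also reached, and passed in neither.

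Gata3, which works beside Cdx2 in the trophectoderm, had 1 probe set (1448886_at) and the largest difference of the 8 genes. It read 4.42 and 5.30 in PiCs, against 3.93 and 4.08 in ESCs. Both PiCs replicates were above both ESCs replicates, and PiCs replicate 2 stood apart from replicate 1 by 0.88. A log2 fold change of 0.86 ± 0.31 had a limma adjusted p of 0.213 and was 0.42 without PiCs replicate 2 and 1.30 without PiCs replicate 1. The highest array of Gata3 read 5.43, under the limit of 6.63, and PiCs signals of this kind cannot be told from background here. The measured 1.82-fold difference is on the array's signal scale and is not an exact ratio of RNA at this level.

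Tfap2c encodes AP-2 gamma, which acts in trophectoderm and trophoblast stem cells and is also present in germ cells and naive pluripotent cells. It was the 1 member for which every probe set lay above the limit. The brightest, 1436392_s_at, read 9.55 and 9.65 in PiCs, against 10.17 and 10.41 in ESCs. Both PiCs replicates were below both ESCs replicates, while single arrays overlapped slightly, since the highest PiCs array read 10.03 and the lowest ESCs array 9.95. The log2 fold change was -0.69 ± 0.14, so signal was 1.62-fold higher in ESCs than in PiCs, and the limma adjusted p of 0.0731 did not pass. The probe set 1418147_at read 8.02 and 8.24 in PiCs and 8.51 and 9.14 in ESCs. The probe set 1448977_at read 8.39 and 8.75 in PiCs and 8.77 and 9.45 in ESCs. All 3 placed both PiCs replicates below both ESCs replicates, with log2 fold changes of -0.54 to -0.69. Leaving out any 1 replicate kept the value for 1436392_s_at between -0.81 and -0.57.

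Tfap2a, which encodes AP-2 alpha, a partner of AP-2 gamma in trophoblast and a regulator of neural crest and surface ectoderm, was near background. Its brightest probe set, 1426048_s_at, read 5.90 and 5.96 in PiCs, against 6.70 and 6.13 in ESCs. The 6 PiCs arrays all lay below the 6 ESCs arrays, and ESCs replicate 1 stood above ESCs replicate 2 by more than the groups differed. The log2 fold change was -0.49 ± 0.22 (limma adjusted p = 0.290), and -0.21 without ESCs replicate 1 and -0.77 without ESCs replicate 2. The probe set 1421996_at read 5.70 and 5.82 in PiCs and 6.58 and 5.72 in ESCs, so that its groups overlapped. The probe set 1421995_at read 5.13 and 5.23 in PiCs and 5.44 and 5.26 in ESCs.

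Elf5, an ETS factor that holds cells in the trophoblast stem cell state, gave the lowest signals of the 8 genes. Its probe set 1419556_at read 4.09 and 3.83 in PiCs, against 3.80 and 4.07 in ESCs. The groups overlapped, each replicate 1 or 2 lying beside one of the other group. Between the groups the log2 fold change was 0.02 ± 0.17 (limma adjusted p = 0.960), with a 95% interval from -0.41 to 0.46. The probe set 1419555_at read 3.56 and 3.55 in PiCs and 3.52 and 3.76 in ESCs. Both lay below the median of the adult tissue genes, 4.54, so no Elf5 signal above background was measured in either group.

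Hand1, a basic helix-loop-helix factor that drives giant cell formation and is also used in lateral mesoderm, did not separate the groups either. Its brighter probe set, 1417525_at, read 6.24 and 6.53 in PiCs, against 6.23 and 6.36 in ESCs. PiCs replicate 1 lay between the ESCs replicates. Its log2 fold change was 0.09 ± 0.15 (limma adjusted p = 0.811), with a 95% interval from -0.31 to 0.49. The probe set 1448750_at read 4.83 and 5.07 in PiCs and 5.08 and 4.93 in ESCs.

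Ascl2, a basic helix-loop-helix factor needed for spongiotrophoblast and expressed from the maternal allele in placenta, had lower signal in PiCs by all 3 of its probe sets. The brightest, 1460514_s_at, read 6.42 and 6.25 in PiCs, against 7.11 and 6.75 in ESCs. Its 6 PiCs arrays, 5.98 to 6.44, all lay below its 6 ESCs arrays, 6.74 to 7.35. The log2 fold change was -0.59 ± 0.17 (limma adjusted p = 0.141). The probe set 1432018_at read 5.74 and 5.23 in PiCs and 6.41 and 5.999 in ESCs. The probe set 1422396_s_at read 5.68 and 5.34 in PiCs and 6.09 and 5.86 in ESCs. In each of the 3 both PiCs replicates were below both ESCs replicates, but PiCs signal lay under the limit in all of them.

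Gata2, a zinc finger factor of giant cells and of blood progenitors, was above the limit by 1 of its 2 probe sets. That probe set, 1450333_a_at, read 7.41 and 7.26 in PiCs, against 8.26 and 7.49 in ESCs. ESCs replicate 1 was the high value, and ESCs replicate 2 lay 0.77 below it, a wider gap than that between the group means. Gata2 had a log2 fold change of -0.54 ± 0.28 (limma adjusted p = 0.358), and -0.16 without ESCs replicate 1 and -0.93 without ESCs replicate 2. The probe set 1428816_a_at read 5.61 and 5.62 in PiCs and 6.22 and 5.59 in ESCs, with overlap. The size of the Gata2 difference thus turned on which ESCs replicate was used.

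**Figure D2:**
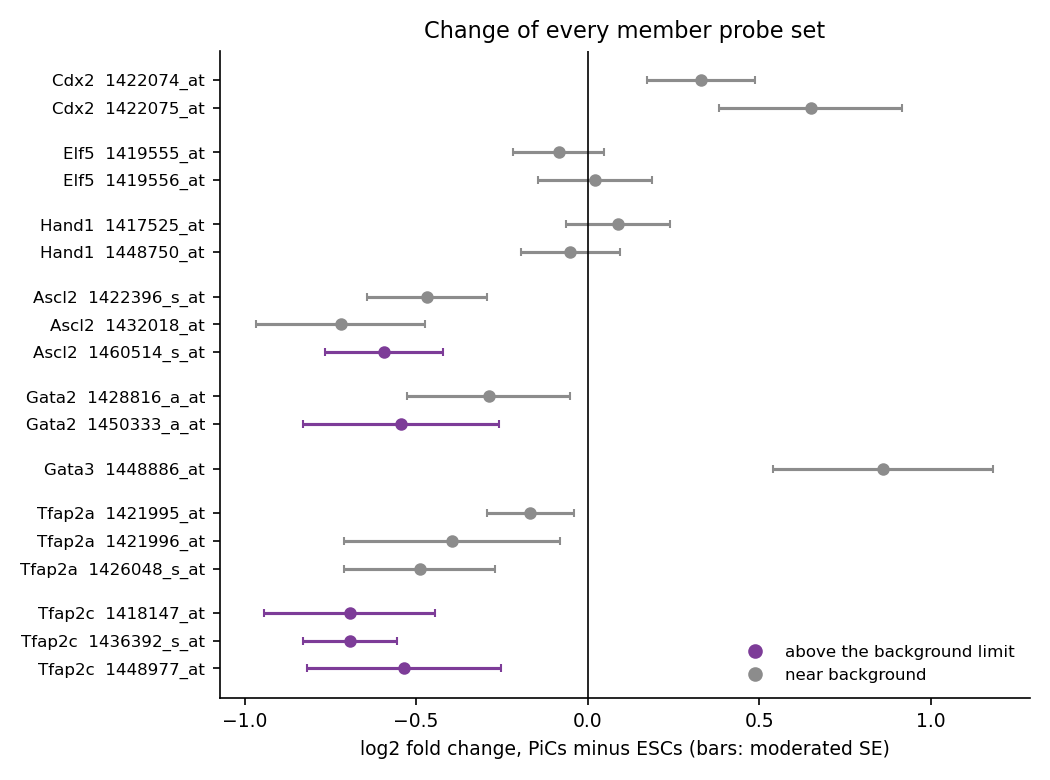
Log2 fold change of PiCs minus ESCs for all 18 probe sets, with limma's moderated standard errors from the fit over all probe sets, purple where the probe set was above the background limit and grey where it was near background. The 5 purple points, the probe sets of Tfap2c and the brightest of Gata2 and of Ascl2, lie between -0.54 and -0.69. The higher group mean set the colour, and the purple Ascl2 point was over the limit in ESCs (6.93) but not in PiCs (6.33).

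Across the 18 probe sets, both PiCs replicate means lay below both ESCs replicate means in 9 and above them in 3, with overlap in 6. Over all 45037 probe sets other than array controls, 28.3% lay below in this way and 20.2% above. Probe sets of 1 gene read the same RNA, so the 9 are not 9 separate results: they are the 3 of Ascl2, the 3 of Tfap2c, 2 of Tfap2a and 1 of Gata2. At the level of single arrays, Ascl2 and Tfap2a, 2 of the 8 genes, had all 6 PiCs arrays below all 6 ESCs arrays, and 10.8% of all genes did. When each probe set was tested by itself, 0 of the 18 passed in limma and 0.0999% of all probe sets did. By an unadjusted p under 0.05, 5 of the 18 passed, the 3 of Ascl2 and 1436392_s_at and 1418147_at of Tfap2c, and 17.7% of all probe sets did. By the platform's naming, the suffix _s_at marks probes shared by more than 1 transcript, and the brightest probe sets of Tfap2c, Tfap2a and Ascl2 are of this kind.

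The spread between control replicates limited the comparison for several genes. In Cdx2, Gata2 and Tfap2a, ESCs replicates 1 and 2 differed by 0.71, -0.77 and -0.57 (replicate 2 minus 1), each further than PiCs differed from ESCs. In all 3 of these genes ESCs replicate 2 was the control nearer to PiCs. In Tfap2c the replicates differed by only 0.10 in PiCs and 0.24 in ESCs, beside a group difference of -0.69, and in Ascl2 by -0.17 and -0.36, beside -0.59. Array controls also differed between replicates. For beta-actin, the difference of the 5′ from the 3′ probe set, which reflects RNA integrity and labelling, was -0.66 and -0.24 in PiCs replicates 1 and 2, against -0.90 and -0.50 in ESCs replicates 1 and 2. Signal of 18S ribosomal RNA was 9.74 and 8.35 in PiCs and 10.74 and 10.04 in ESCs. Their part in these results was not tested.

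**Figure D3:**
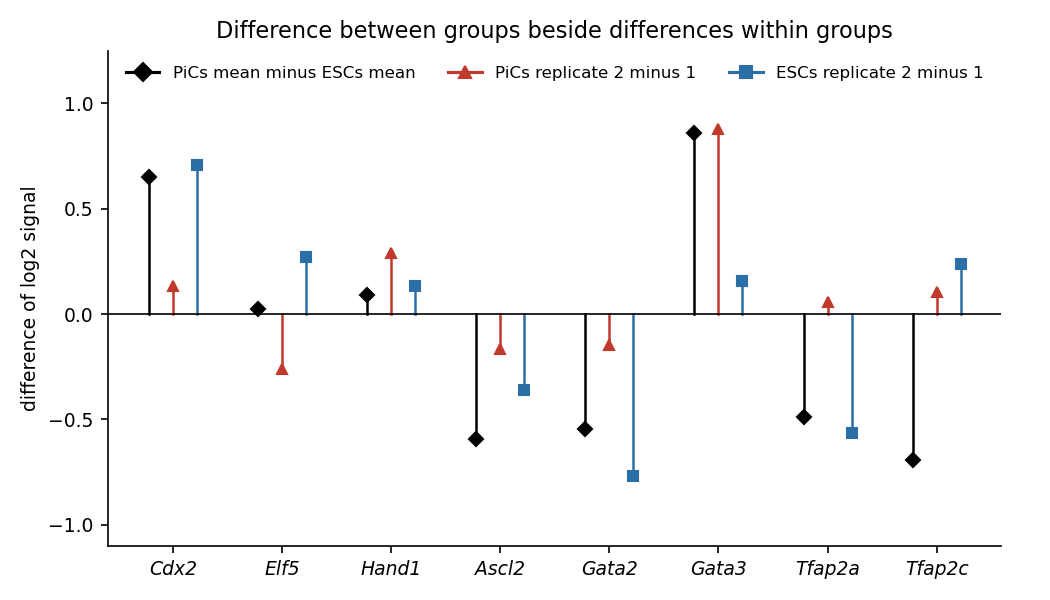
Difference of log2 signal for the brightest probe set of each gene: PiCs mean minus ESCs mean in black, PiCs replicate 2 minus 1 in red and ESCs replicate 2 minus 1 in blue. The black value exceeds both others in size for Tfap2c and Ascl2, while in Gata2 it is -0.54 beside -0.77 between the ESCs replicates.

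For the 3 genes above the limit, the genes with the most similar course over the 12 arrays were looked up among 12760 genes brighter on average than the 40th percentile of probe sets. The arrays come from 4 biological replicates, so these correlations are over points that share cultures and are a description. Tfap2c was followed most closely by the Src family kinase gene Yes1 (Pearson r = 0.978), the replication stress gene Etaa1 (0.969) and Dpy30 (0.961), a subunit of histone H3K4 methyltransferase complexes, and 89 genes had an r above 0.9. Ascl2 was followed by the tRNA synthetase gene Rars (0.981), Ruvbl1 (0.976) and 1810030O07Rik (0.975), among 450 genes above 0.9. Gata2 was followed by Anapc5 (0.974), a subunit of the anaphase-promoting complex, the potassium-chloride cotransporter gene Slc12a5 (0.971) and the DNA repair gene Nthl1 (0.966), among 206. None of these 9 genes passed the limma test, and the smallest adjusted p among them was 0.0774, for Yes1.

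All 12 listed markers of embryonic stem cells lay above the limit by the higher of their PiCs and ESCs means, beside 10358 of all 18193 genes. Pou5f1 read 13.44 and 12.87 in PiCs, against 13.56 and 13.32 in ESCs. Of the 12 markers, Zfp42, Fgf4 and Esrrb fell, 0 rose and 9 did not pass. Over all 18193 genes, 243 fell and 551 rose. The mean was lower in PiCs for 11 of the 12, with a list median log2 fold change of -0.47. An unadjusted limma p under 0.05 was reached by 8, beside 22.1% of all genes. Lin28a, the 1 marker with a higher mean in PiCs, is among these 8 (log2 fold change 0.67, limma adjusted p = 0.0530). Klf4, a factor of the naive pluripotent state, read 8.63 and 9.67 in PiCs, against 11.87 and 11.26 in ESCs (limma adjusted p = 0.0553). Fewer cells with a transcript and less of it per cell cannot be told apart in such bulk samples.

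Among 22 measured regulators and signals of the trophoblast lineage outside the 8 genes, Eomes and Satb1 rose, Esrrb and Spry4 fell and 18 did not pass. Over all genes 4.36% passed. By an unadjusted limma p under 0.05, 9 of the 22 passed, beside 22.1% of all genes. The list had a median log2 fold change of 0.05. Eomes, a T-box factor of trophoblast stem cells and of the primitive streak, read 9.02 and 9.33 in PiCs, against 6.68 and 6.66 in ESCs (adjusted p = 0.0246). Tead4, which switches on Cdx2 in the embryo, read 6.07 and 6.15 in PiCs and 6.78 and 6.17 in ESCs. It was near background and did not pass. Bmp4, a signal that promotes trophoblast fate, read 7.69 and 9.26 in PiCs and 10.16 and 10.35 in ESCs (adjusted p = 0.153), and Fgfr2, the receptor for the trophoblast growth signal Fgf4, read 7.07 and 7.61 in PiCs and 6.32 and 7.72 in ESCs.

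Of 24 measured products of differentiated trophoblast, 0 passed in limma, beside 4.36% of all genes. Near background were 11 of the 24, beside 7835 of all 18193 genes. An unadjusted limma p under 0.05 was reached by 3, beside 22.1% of all genes. These were Tfpi, Rhox6 and Rhox9, with log2 fold changes of -1.75, -1.04 and -0.63. The median signal of this list was 6.24 and 6.42 in PiCs and 6.63 and 6.51 in ESCs. Tpbpa, the defining spongiotrophoblast gene, read 3.14 and 3.19 in PiCs and 3.14 and 3.34 in ESCs, and Ctsq and the placental hormone genes Prl4a1, Prl7d1 and Prl8a8 were also near background in both groups. The epithelial keratin gene Krt8 read 9.71 and 11.97 in PiCs and 7.17 and 10.40 in ESCs, and its partner Krt18 read 9.92 and 11.70 in PiCs and 6.84 and 10.00 in ESCs. In both keratins the ESCs replicates lay more than 3 log2 units apart, and neither passed.

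Upstream, 1 of 16 Hippo pathway genes rose, Tead2 (log2 fold change 1.02 ± 0.16), beside 551 of all 18193 genes. The list median was 0.39, with 11 genes above 0 and 5 below. By an unadjusted limma p under 0.05, 8 of the 16 passed, beside 22.1% of all genes. Amot (2.50 ± 0.57), Amotl2 (1.99 ± 0.34) and Wwtr1 (1.34 ± 0.28) differed more than Tead2 but did not pass the adjusted threshold. Yap1 did not pass it either (0.38 ± 0.12, limma adjusted p = 0.163). Of 21 factors reported to hold trophoblast genes down in stem cells, the DNA demethylase genes Tet1 (-1.14 ± 0.14) and Tet2 (-2.53 ± 0.13) fell, 0 rose and 19 did not pass. The list median was -0.16, with 17 genes below 0 and 4 above, beside 10198 of all 18193 genes below 0. By an unadjusted limma p under 0.05, 6 of the 21 passed, beside 22.1% of all genes. Other cells that use the same factors were checked by their own markers. Fgf8 and Msx1 rose among 20 primitive streak and posterior mesoderm genes, and the list median was 0.30. Near background were 15 of the 20, beside 7835 of all 18193 genes. By an unadjusted limma p under 0.05, 8 of the 20 passed, beside 22.1% of all genes. Bmp4 was lower in PiCs, and Fgf8, Msx1, Mixl1 (2.96 ± 0.51), Wnt3, Evx1, Wnt8a and Gsc were higher. Of these, Wnt3, Evx1, Wnt8a and Gsc were near background. Msx1 rose and Grhl3 (-1.27 ± 0.15) fell among 17 genes of surface ectoderm and neural crest. Prdm14 fell among 9 germ cell genes, and Pecam1, also a stem cell surface gene, fell among 12 genes of blood and endothelium, of which 10 were near background. Of all 18193 genes tested, 551 rose and 243 fell.

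**Figure D4:**
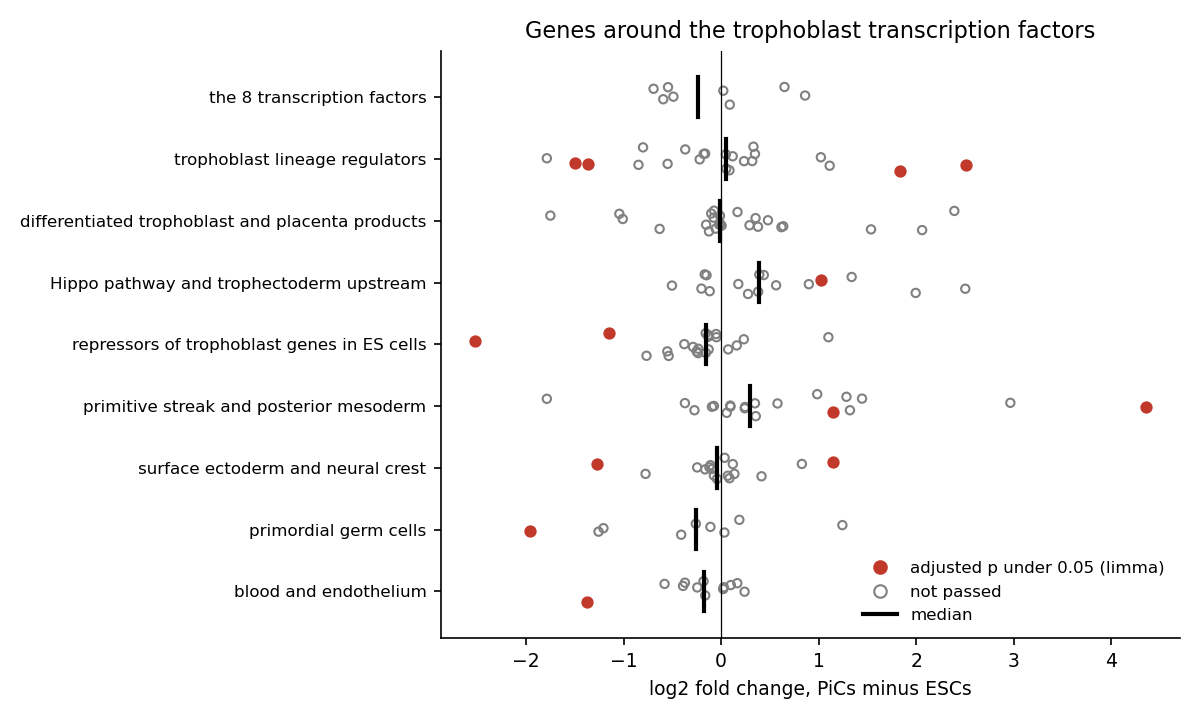
Log2 fold change of PiCs minus ESCs for the 8 transcription factors and for 8 lists around them, 1 point per gene, filled red where the limma adjusted p was under 0.05, with a bar at each median. The 8 factors lie between -0.69 and 0.86 with no filled point, and Msx1, Msx2, Bmp4, Dlx3, Dlx5 and Kdr appear in 2 lists each.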

How the data were processed

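The table the authors deposited holds log2 signals of 45101 probe sets on 12 arrays, which they had normalized. MAS5 and RMA are both named, per the submitters' processing notes, without version and without saying which made the table. Values ran from 2.10 to 14.8 and array medians from 5.99 to 6.03, as RMA-type log2 summaries do. No scanner files or detection calls were used. Pearson's r between arrays was 0.996 to 0.998 within a biological replicate, 0.985 to 0.989 between replicates of a group and 0.962 to 0.981 between groups.

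Names came from the platform annotation, and symbols were checked by gene ID against RefSeq (GRCm38.p6), which changed 0 symbols. A single symbol was given to 34945 probe sets and several to 932, and 9160 are unnamed here. The means of 3 arrays per biological replicate entered limma 3.58.1 (R 4.3.3; lmFit and eBayes, two-sided, without covariates), and p was adjusted by Benjamini-Hochberg over 18193 genes, each by its brightest probe set, and separately over 45037 probe sets. Degrees of freedom in the gene fit were 2 residual and 2.60 prior. P-values rest on the spread between these replicates, moderated by limma's prior from all genes or all probe sets. The titles call the replicates biological, but the labels do not say how they were kept apart, so their spread may be technical. The number of replicates limits the precision. Motif and CpG counts used RefSeq start windows. Plots were drawn with matplotlib 3.10.9.

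The 8 genes, the lists, the limit and the tests were chosen with earlier results of these data known. The text names all 8 genes, list members past the threshold or else the 3 with the smallest p, a fixed set (Eomes, Tead4, Pou5f1, Yap1, Tet1, Fgfr2, Bmp4, Krt8 and Krt18) and the 3 most similar genes of each member above the limit. Other list genes are examples chosen after their values were seen. Alternatives were quantile normalization, median centring, a filter on dim features, the median over probe sets, an intensity trend, the 12 arrays with a random block, a block by replicate number, leaving out each replicate, and other background limits.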

Additional observations from a re-analysis of the deposited data

Results flagged for a closer look

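Single arrays stood apart in 3 of 36 sets of 6 arrays (18 probe sets in each group). In these, the gap to the nearest array, over the set's range, exceeded Dixon's 95% critical value. Independent arrays would exceed it by chance in about 1 in 20 sets. The 6 arrays of a set are 3 from each of 2 replicates, so that rate is only a rough guide here. Elf5 1419555_at read 4.20 on 1 array of ESCs replicate 2, and the next highest ESCs array read 3.67. Hand1 1417525_at read 6.07 on 1 array of ESCs replicate 1, and the next lowest ESCs array read 6.30. Ascl2 1460514_s_at read 5.98 on 1 array of PiCs replicate 2, and the next lowest PiCs array read 6.37.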

How the results depend on the processing

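Of 86 recomputed log2 fold changes of the 8 genes, 78 kept their direction and stayed on the same side of the threshold. The direction turned for Elf5 with the median over its probe sets (-0.031), without PiCs replicate 1 (-0.11) and without ESCs replicate 1 (-0.11), and for Hand1 without PiCs replicate 2 (-0.055). Leaving out each replicate in turn, Elf5 ran from -0.11 to 0.16 and Hand1 from -0.055 to 0.23. With the 12 arrays in a random block 3 of the 8 genes passed: Gata3 (adjusted p = 0.0207), Ascl2 (0.0286) and Tfap2a (0.0400), in a background of 21.9% of all genes. With the replicate number as a block (replicate block), 1 of the 8 passed, Tfap2c (adjusted p = 0.0379), in a background of 11.2% of all genes. Changes between replicates 1 and 2 correlated between the groups across probe sets (r = 0.445), but 2 pairs do not show that the numbers pair the samples.

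Genes past the threshold were 794, against 351 with the median over probe sets, 3987 in a random block and 2039 with the replicate block. Probe sets past it were 45, against 0 with median centring (7959 at an unadjusted p under 0.05 in limma), 546 without dim probe sets, 7618 in a random block, 3733 with the replicate block and 670 with an intensity trend. Leaving out any replicate left 0 genes (2766 to 3676 at an unadjusted p under 0.05), 0 members and 0 probe sets (5198 to 7900) past it in limma; the lone sample is then assumed to vary like the other group. Member probe sets near background were 13, against 6 at the 75th percentile of the adult tissue genes, 5 at the 40th percentile of all probe sets and 4 at the olfactory receptor limit. The causes were not tested. Signals near background limit Cdx2, Elf5, Hand1, Gata3 and Tfap2a.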
